A study of Mus musculus with 27 samples.

Results

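The fetal and imprinted growth genes Mest, Afp, H19, Igf2, Dlk1, Peg3, Plagl1, Cdkn1c, Igf2bp1 and Lin28b were followed through the developing mouse esophagus. They are 10 of 28508 gene names on the array and were found as the probes that carry one of these names. The set was chosen by the fall in ratio from P7 to the adult, since Mest and Afp were among the genes with the largest falls, so the wild-type (WT) difference between these ages is given as a description with no test. In that contrast, with genes ordered from the largest fall, Afp was number 2 and Mest number 4 of 18189. Other tests below that use the WT P7 or WT adult arrays are, for Mest and Afp, not independent of this choice.

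Most of these genes belong to the imprinted growth network, in which only the maternal or the paternal copy is read. Igf2 encodes a paternally expressed growth factor of the embryo, H19 is the maternally expressed non-coding RNA beside it, and Cdkn1c encodes p57, a maternally expressed inhibitor of the cell cycle. Mest, Peg3, Dlk1 and Plagl1 are read from the paternal copy. Mest encodes a hydrolase-like protein of mesodermal tissue, Peg3 and Plagl1 are zinc finger proteins, and Dlk1 is a membrane protein of the Delta family that restrains fat cell formation. Afp, alpha-fetoprotein, is the main plasma protein made by yolk sac and fetal liver and is shut off in the liver after birth. Igf2bp1 binds the Igf2 mRNA among others, and Lin28b blocks the maturation of let-7 microRNAs. Both are RNA-binding proteins of the fetus.

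The labels give C57BL/6J as the strain or background of every group, whereas the methods name it for WT mice and give C57BL for the Nrf2-/- and Keap1 lines. RNA was taken from individual esophagi. WT mice were sampled as embryos at E11.5 and E15.5, on the day of birth (P0), 7 days after birth (P7) and as adults of 8 weeks. Nrf2-/- mice were sampled at P7 and as adults, and Keap1-/- and Nrf2-/-Keap1-/- mice at P7 only. Nrf2 is the transcription factor of the oxidative stress response and Keap1 the protein that marks it for degradation, and the null alleles were carried in all tissues. Embryonic and postnatal samples up to P7 were whole esophagus whereas the adult samples were epithelium alone, so age and tissue cannot be told apart from P7 to the adult. Each of the 9 groups had 3 arrays. Every value below is a log2 ratio of the sample (Cy5) to a common reference RNA pooled from mouse cell lines (Cy3), so ratios of different genes are not levels that can be compared.

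The median Cy5 intensity of the 27 arrays ranged from 81.8 to 226, and 58.9% to 69.3% of spots were well above background in Cy5. Nfe2l2, which encodes Nrf2, was between -3.92 and -3.82 in the Nrf2-/- arrays at P7 and between -0.55 and 0.00 in WT, while the ranges of the Keap1 probe overlapped between Keap1-/- and WT, and whether that probe lies in the deleted part is not known. All 10 squamous epithelium markers were above background on every array from P0 on. Over 19786 genes, the array with the label WT E11.5 replicate 3 was nearer to E15.5 replicates 2 and 3 (r of 0.981 and 0.976) than to its own group (0.834 and 0.778). The array with the label WT E15.5 replicate 1 was nearer to E11.5 replicates 1 and 2 (0.958 and 0.929) than to its own group (0.808 and 0.816). Labels were kept, and embryonic results are given with and without both arrays. The 3 Keap1-/- arrays shared a slide and a scan day with no other group, so genotype and scan cannot be told apart for them. Their image software version also differed from that of the other P7 arrays. Their median Cy3 intensity was 115 to 147, against 223 to 261 on the other P7 arrays.

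The promoters of 4 members that were low together in the adult are shown. Each line holds the 250 bases before a RefSeq transcript start (GRCm38.p6), with capitals marking CG pairs, TATAAA and GTTAAT, both motifs searched on both strands. TATAAA is a TATA box and GTTAAT is the core of sites bound by the hepatocyte factors of the HNF1 family. For genes with several starts the one with the most CG pairs is printed. RefSeq entries were found for 7 of the 10 members.
Mest (chr6:30737800-30738049, plus strand): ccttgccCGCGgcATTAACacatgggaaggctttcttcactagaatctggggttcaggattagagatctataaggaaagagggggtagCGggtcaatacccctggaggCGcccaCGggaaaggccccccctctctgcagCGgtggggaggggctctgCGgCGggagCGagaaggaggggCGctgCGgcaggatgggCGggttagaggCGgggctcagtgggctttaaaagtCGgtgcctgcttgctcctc
Afp (chr5:90490464-90490713, plus strand): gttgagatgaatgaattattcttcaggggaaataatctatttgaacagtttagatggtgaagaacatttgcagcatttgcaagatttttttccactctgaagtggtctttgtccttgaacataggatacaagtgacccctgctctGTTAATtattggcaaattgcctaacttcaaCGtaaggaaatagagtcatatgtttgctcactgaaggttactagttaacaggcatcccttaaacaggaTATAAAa
Igf2 (chr7:142658805-142659054, minus strand): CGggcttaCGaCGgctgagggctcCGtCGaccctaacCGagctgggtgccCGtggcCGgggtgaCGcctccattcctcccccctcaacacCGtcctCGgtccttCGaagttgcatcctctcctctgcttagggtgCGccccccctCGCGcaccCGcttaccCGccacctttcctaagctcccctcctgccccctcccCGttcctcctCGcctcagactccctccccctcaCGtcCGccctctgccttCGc
Dlk1 (chr12:109452573-109452822, plus strand): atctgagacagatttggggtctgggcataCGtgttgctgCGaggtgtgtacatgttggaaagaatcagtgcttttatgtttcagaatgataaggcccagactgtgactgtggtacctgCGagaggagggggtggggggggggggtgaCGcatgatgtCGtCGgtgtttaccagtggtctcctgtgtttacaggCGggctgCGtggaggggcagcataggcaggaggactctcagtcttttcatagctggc
The Afp window held 1 TATAAA, 1 GTTAAT and 1 CG pair. The Igf2 window held 22 CG pairs, the Mest window 14 with 1 GTTAAT, and the Dlk1 window 8. Other Igf2 starts held 6, 10 and 1 CG pairs, and other Mest starts held 7 with 0 GTTAAT and 14 with 1. The printed Igf2 and Mest windows were picked for CG pairs and the promoters below were not, so the counts are not alike. Of 32851 promoters, 12.4% held TATAAA, 6.43% held GTTAAT and 92.1% held a CG pair, with a median of 6 pairs. Such matches describe the letters and are not sites of binding.

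**Figure D1:**
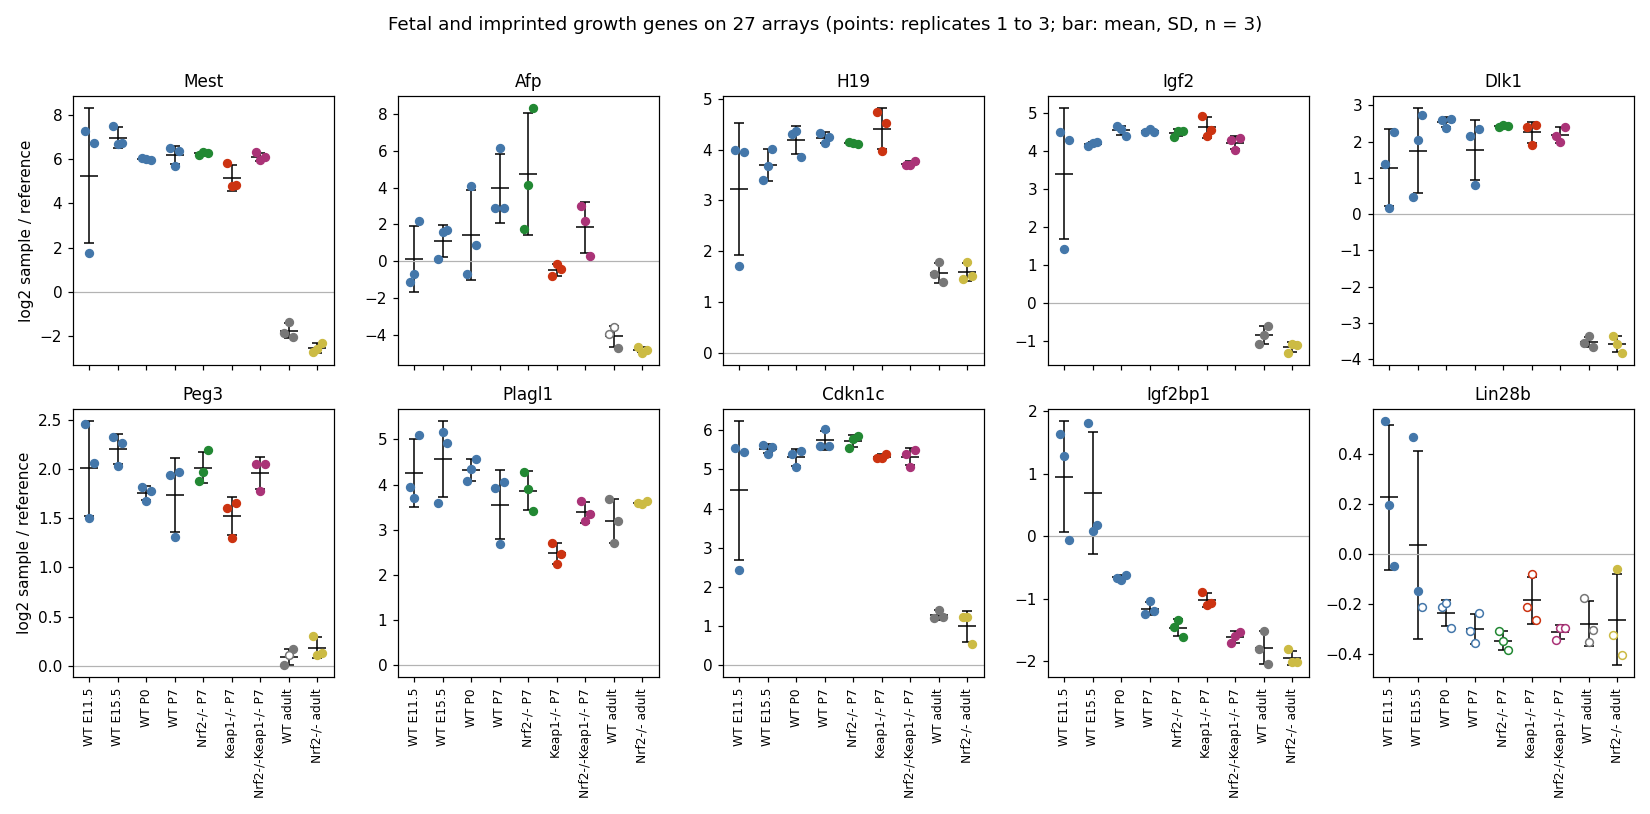
Log2 ratio to the reference RNA of each of the 10 members on all 27 arrays by group, with filled points above background in Cy5 and open points not. Mest, Igf2, Dlk1, Cdkn1c and H19 are lower in both adult groups, Plagl1 is not, and E11.5 replicate 2 lies at 1.74 for Mest.

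Igf2, the growth factor, had a high ratio on every WT array from E11.5 to P7 except E11.5 replicate 2. Its log2 ratios were 4.51, 1.43 and 4.30 in the E11.5 replicates 1 to 3, 4.14, 4.23 and 4.24 at E15.5, 4.66, 4.58 and 4.41 at P0, and 4.52, 4.59 and 4.51 at P7. In WT adult epithelium they were -1.08, -0.84 and -0.61. H19, its neighbour, stayed between 3.40 and 4.37 from E15.5 to P7 and was between 1.38 and 1.78 in the WT adult. Both lie on chromosome 7, Igf2 at chr7:142650768-142666816 and the exons of the H19 RNA within chr7:142575530-142578146 (GRCm38.p6).

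Mest also had a high ratio throughout development, except on E11.5 replicate 2. Its ratios were 7.27, 1.74 and 6.72 at E11.5, 7.52, 6.69 and 6.72 at E15.5, 6.05, 6.02 and 5.95 at P0, and 6.50, 5.71 and 6.35 at WT P7. The WT adult arrays gave -1.86, -1.37 and -2.03. Cdkn1c, the p57 gene, ran the same course, between 5.07 and 6.02 from E15.5 to P7 and between 1.19 and 1.42 in the WT adult. Dlk1 and Peg3 were likewise above their adult values on every embryonic and P7 array.

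Embryonic replicate 2 at E11.5 stood apart in the reference channel. It was the lowest of its group for 7 of the 10 members, below the mean of the other E11.5 arrays by 5.25 for Mest, 3.07 for Cdkn1c, 2.97 for Igf2 and 2.26 for H19 on the log2 scale. Its Cy5 signal for Mest was 113254, higher than the 59935 and 63683 of replicates 1 and 3. Its Cy3 signal for Mest was 151855, whereas the other 26 arrays lay between 816 and 1826. The Igf2 probe with 10 spots read 275489 in Cy3 there and at most 24417 elsewhere, and Cdkn1c read 28237 against at most 4882. In Cy5 that Igf2 probe read 135562 on replicate 2, above the 66365 and 101782 of replicates 1 and 3. All 10 members had a probe with a higher Cy3 signal on this array than on any other. Its median Cy3 intensity over all spots, 386, was also the highest, with at most 294 elsewhere. Lin28b counted only through probes never above background in Cy5, and its measured probe read 334 against at most 408 elsewhere. Over 41174 probes its Cy3 signal correlated with its own Cy5 signal at r = 0.947, against 0.886 to 0.926 on the other arrays. For H19 (13099 in Cy3 on the dimmer probe, at most 3046 elsewhere) and Cdkn1c the Cy5 signal of replicate 2 was also the lowest of the 3 E11.5 arrays, at 7986 against 15604 and 23812 on that H19 probe and at 28526 against 29821 and 57194 for Cdkn1c. What raised the reference signal was not tested, and results that use E11.5 are also given without this array.

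For H19 and Peg3 the probes differed, and their sequences show which part of the transcript each read. The lines below are 60-base probes with their mm9 positions from the array files.
H19 probe A (chr7:149761769-149761828, minus strand): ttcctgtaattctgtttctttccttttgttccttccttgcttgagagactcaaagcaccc
H19 probe B (chr7:149762018-149762165, minus strand): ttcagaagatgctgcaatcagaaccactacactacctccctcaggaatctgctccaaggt
Peg3 probe (chr7:6660440-6660499, minus strand): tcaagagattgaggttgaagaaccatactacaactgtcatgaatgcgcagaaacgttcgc
H19 probe A averaged 3.28 in WT P7 and 1.33 in the WT adult, and probe B averaged 5.19 and 1.81, so the size of the difference depended on the probe while its direction did not. The Peg3 probe shown averaged 3.56 in WT P7 and -0.24 in the WT adult. A further Peg3 probe, above background on 24 of 27 arrays, differed by -1.38 between the same groups, and another, above background on 6, averaged 0.15 and 0.40. The Peg3 gene mean, over all 3, thus differs less than the probe shown.

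From E11.5 to P7 in WT esophagus, Igf2bp1 fell and Afp rose, while the imprinted members did not pass the test. Igf2bp1 gave 1.63, 1.29 and -0.05 at E11.5, 1.82, 0.09 and 0.17 at E15.5, -0.66, -0.69 and -0.62 at P0, and -1.24, -1.04 and -1.19 at P7. All embryonic arrays were above all postnatal ones, and the highest values were in the E11.5 arrays 1 and 2 and the array labelled E15.5 replicate 1. Igf2bp1 fell by 2.11 (SE 0.48, limma with Benjamini-Hochberg adjusted p = 0.00836). Afp gave -1.14, -0.69 and 2.20 at E11.5, 0.12, 1.57 and 1.68 at E15.5, -0.69, 4.10 and 0.88 at P0 and 2.87, 6.15 and 2.88 at P7. The P7 arrays were all above the E11.5 arrays, and the P0 arrays were spread across both. The P7 arrays entered the choice of Afp, so its test is not independent of that choice. Afp rose by 3.85 (SE 1.31, adjusted p = 0.0480).

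Those were 2 of 10 members, beside 30.1% of 19925 genes called in the same comparison. The median change of the 10 was 0.72 and that of all genes -0.01. With the replicate number as a block, 0 members were called (Igf2bp1 adjusted p = 0.101, Afp 0.580). The Afp call was also lost without any one of E11.5 replicates 1 and 2 or the 3 P7 arrays, with only Igf2bp1 called in each of these. Without the pair of arrays that correlate with the other label, 3 were called, Afp at 4.89, Igf2bp1 at -2.62 and Lin28b at -0.66. Without those and E11.5 replicate 2, 2 were called, Igf2bp1 at -2.79 and Mest at -1.08 (adjusted p = 0.0137), while Afp was at 5.11 (adjusted p = 0.0503); the E11.5 group was then a single array that was assumed to vary like the others.

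Lin28b was the dimmest member. Of its 3 probes, 1 was above background, on 6 of the 27 arrays, and the others on 0. The gene mean was 0.53, 0.20 and -0.05 at E11.5 and 0.47, -0.15 and -0.21 at E15.5, and the third of these E15.5 arrays was not well above background. No WT array at P0 or P7 was above background for it. On the probe that was measured, E11.5 was at least 2.56-fold higher than P7. At E15.5, where 2 of 3 arrays were above background, the measured ratio to P0 was 1.79-fold, which is not a lower bound. Without both doubted arrays these values were 3.69-fold and 1.31-fold, the latter with 1 of 2 E15.5 arrays above background. The fitted change from E11.5 to P7 was -0.53 (SE 0.19, limma adjusted p = 0.0565) and did not pass. Lin28b was not tested among the P7 or adult groups, where too few arrays were above background.

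The single steps gave no member past the threshold. In limma the step between E11.5 and E15.5 called 0 of 10 (background 0%, 0 at an unadjusted p under 0.05), 0 from E15.5 to P0 (19.7%, 1 unadjusted) and 0 from P0 to P7 (2.41%, 0 unadjusted). With both doubted arrays left out, Igf2bp1 fell at every step, by 1.33 (SE 0.14, adjusted p = 0.000335), then 0.79 (adjusted p = 0.0032) and then 0.50 (adjusted p = 0.0375). Lin28b fell by 0.54 at the first of these steps (adjusted p = 0.0277). Leaving out E11.5 replicate 2 as well gave Igf2bp1 at -1.50, -0.79 and -0.50, all called, Mest called from E15.5 to P0 at -0.69 (adjusted p = 0.0453), and no call for Lin28b. In the F-test over the 4 WT ages, 1 of 10 members was called, Igf2bp1 (adjusted p = 0.0146), beside 30% of genes.

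Hepatocyte markers moved with Afp in these samples. The median ratio of the 12 markers was 0.02, -0.04 and 0.98 at E11.5, -0.03, 0.51 and 0.78 at E15.5, 0.34, 3.15 and 0.89 at P0, and 2.21, 4.33 and 2.61 at WT P7. The array highest for Afp at P0, replicate 2, was the highest of its group for the markers, and so was replicate 2 at P7. From E11.5 to P7, 8 of the 12 markers rose, beside 30.1% of all genes called either way. Between 11 and 12 of the markers were above background in WT P7, and 2 to 10 at E11.5. Alb, albumin, averaged 1.45 at E11.5 and 3.94 at WT P7. Their part in the Afp result was not tested. In whole tissue, fewer cells of a type and less RNA per cell cannot be told apart.

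**Figure D2:**
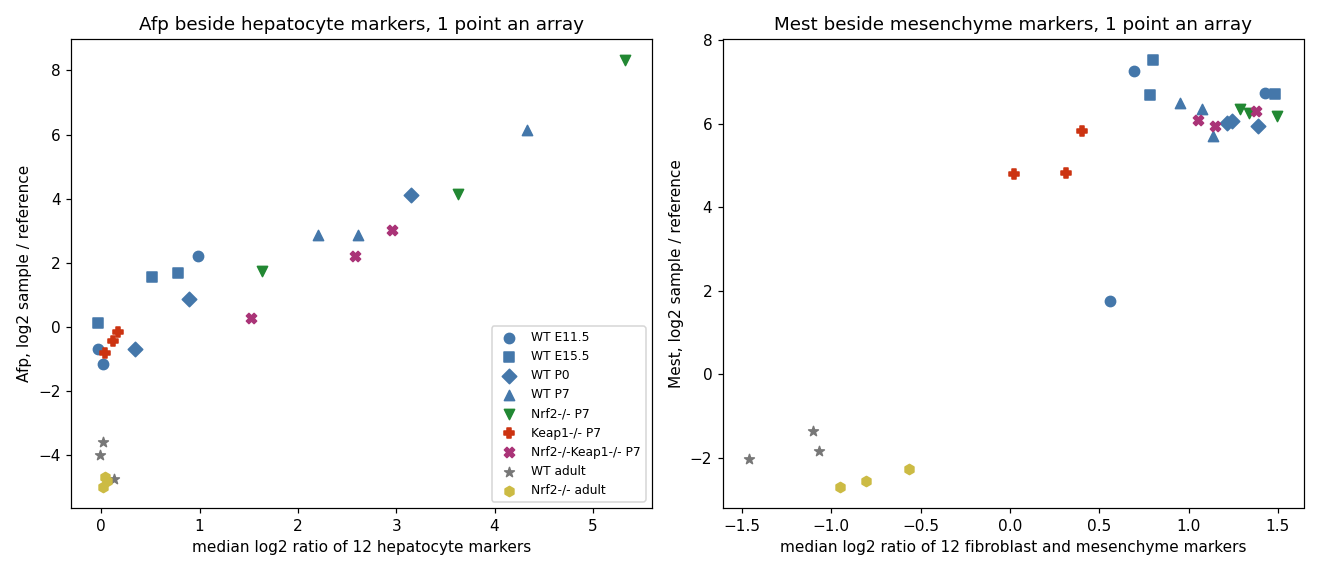
Log2 ratios of members on each array (vertical axis) against the median log2 ratio of marker genes of another cell type (horizontal axis), by group. The Keap1-/- P7 arrays lie at a hepatocyte median between 0.04 and 0.17 with Afp between -0.82 and -0.16.

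Among genes that act with the members, those of the Lin28 and let-7 axis were called in both directions from E11.5 to P7. Of 14 tested, 4 fell and 2 rose, with a median change of -0.36, and this count and those that follow stand beside 30.1% of all genes called. Hmga2, a chromatin protein that let-7 represses, fell by 2.65 (SE 0.83), Igf2bp2 by 1.38 (SE 0.22) and Igf2bp3 by 1.24 (SE 0.22), the last pair being relatives of Igf2bp1. Zcchc6, an enzyme that adds uridine to pre-let-7, rose by 0.53. Of 49 further imprinted genes tested, 8 rose and 11 fell (median change -0.06), with Gatm, of creatine synthesis, up by 3.62 and Usp29, near Peg3, down by 1.02. Of 18 genes of the insulin-like growth factor axis, 4 rose and 1 fell (median change -0.11). Igfbp1, a liver-made binding protein, rose by 3.74, while Ins2 fell by 0.56. Cdkn1a and Cdkn2b, other cell cycle inhibitors beside Cdkn1c, rose by 2.08 and 2.79, which were the 2 of 6 called (median change 0.39). Of 8 Dlk1-like and Notch ligand genes, 2 rose and 1 fell (median change 0.65), with Dll1 up by 1.98 and Dll3 at -2.58. Of the fetal liver genes and their regulators, 5 of 14 rose and 1 fell (median change 0.83). Zbtb20, a repressor of Afp in the liver after birth, rose by 1.72 (SE 0.12), and Foxa2, a foregut factor, fell by 4.31 (SE 0.87). Without both doubted arrays, where 40.3% of all genes were called, 13 imprinted genes rose and 13 fell, and in the Lin28 and let-7 axis 2 rose and 7 fell. The growth factor axis then had 5 up and 4 down, the fetal liver genes 5 and 1, the inhibitors 2 and 0, and the Notch ligand group 6 and 1. With the replicate block, where 10.1% of all genes were called, 5 imprinted genes rose and 1 fell, and each other list had at most 1 call in each direction. With the slide block, where 0.999% were called, no list had more than 1 call.

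At P7, 4 of 9 tested members were lower in Keap1-/- than in WT esophagus, beside 33.3% of 19256 genes called either way and 18% called lower. Mest gave 5.82, 4.79 and 4.82 in Keap1-/- against 6.50, 5.71 and 6.35 in WT. The highest Keap1-/- array lay above the lowest WT array. Mest was lower by 1.05 (SE 0.27, limma adjusted p = 0.0134). Plagl1, the zinc finger regulator of the imprinted network, gave 2.71, 2.25 and 2.47 against 3.92, 2.69 and 4.06 in WT. The groups touched only at the lowest WT array. Plagl1 differed by -1.08 (SE 0.33, adjusted p = 0.0293).

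Afp gave -0.82, -0.16 and -0.44 in Keap1-/-, below every other P7 array. It differed from WT by -4.44 (SE 1.44, adjusted p = 0.0353). The WT P7 arrays entered the choice of Afp and Mest, so the tests of both against WT are not independent of it. Cdkn1c was 5.29, 5.28 and 5.39 against 5.60, 6.02 and 5.60 in WT with no overlap, a difference of -0.42 (SE 0.15, adjusted p = 0.0464). With median centring of the arrays and no loess, Cdkn1c was at 0.06 (adjusted p = 0.806). Mest and Plagl1 were not called there either, and the calls were Afp, Dlk1, H19, Igf2 and Igf2bp1. The calls thus depended on the normalization for all members named here but Afp, whose call depended on single arrays. In the main fit Igf2 and H19 were at 0.09 and 0.18 and did not pass (adjusted p = 0.644 and 0.433). Dlk1, Peg3 and Igf2bp1 did not pass in it either. Of the members called with median centring, only Afp had a Keap1-/- mean below WT in the main fit. The means were 2.26 against 1.77 for Dlk1 and -1.02 against -1.16 for Igf2bp1. No member was called higher in the main fit, beside 15.4% of genes. The median difference of the 9 was -0.22 and that of all genes -0.02.

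These calls rested on few arrays. Leaving out Keap1-/- replicate 3 left 0 of them, with Mest at -0.88 and Afp at -4.46. Leaving out WT replicate 1 left Afp as the only call. Without WT replicate 2 the calls were Mest, Peg3 and Plagl1. Without Keap1-/- replicate 2 the only call was H19, and without Keap1-/- replicate 1 there were 2, Mest and Plagl1. The Afp call was thus lost without WT replicate 2 and without any one Keap1-/- array. Direction was negative for all 4 in each of these fits.

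In Nrf2-/-Keap1-/- esophagus Mest was back in the WT range. It gave 6.30, 5.94 and 6.09, above all Keap1-/- arrays. Mest was higher than in Keap1-/- by 0.97 (SE 0.27, limma adjusted p = 0.0187). H19 gave 3.70, 3.70 and 3.78 against 4.74, 3.97 and 4.52 in Keap1-/- and was lower by 0.69 (SE 0.16, adjusted p = 0.00803). Igf2 was lower by 0.41 (SE 0.14, adjusted p = 0.0403) and Igf2bp1 by 0.59 (SE 0.11, adjusted p = 0.00177). Igf2bp1 was -1.71, -1.59 and -1.52 against -0.88, -1.10 and -1.07, with no overlap. Unlike Mest, these genes were not within the WT range. All Nrf2-/-Keap1-/- arrays lay below WT for H19 (WT 4.12 to 4.33) and Igf2bp1 (WT -1.24 to -1.04). Igf2 was at 4.03 to 4.35 against 4.51 to 4.59 in WT.

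In all 4 of 9 members were called between Nrf2-/-Keap1-/- and Keap1-/-, beside 33.4% of genes. The median difference of the 9 was 0.01 and that of all genes 0.04. With the replicate number as a block 5 were called, Mest, H19, Igf2bp1, Peg3 and Plagl1, and Igf2 was not (adjusted p = 0.0541). Afp gave 3.03, 2.21 and 0.29 in Nrf2-/-Keap1-/-, above all Keap1-/- arrays, and its difference of 2.32 (SE 1.44) did not pass (adjusted p = 0.243). Without Keap1-/- replicate 3, and likewise without Nrf2-/-Keap1-/- replicate 1, 2 members were called. In a single fit of all 27 arrays there were 0.

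Against WT, neither Nrf2-/- nor Nrf2-/-Keap1-/- esophagus differed past the threshold for any member at P7. In limma 0 of 9 were called for Nrf2-/- (background 0.0156%, 1 member at an unadjusted p under 0.05) and 0 of 9 for Nrf2-/-Keap1-/- (0.426%, 4 unadjusted). Igf2bp1 was nearest in the latter, at -0.45 (SE 0.11, adjusted p = 0.0813), and was called there when its brightest probe was used in place of the gene mean. Afp gave 1.75, 4.15 and 8.32 in Nrf2-/-, with the largest SD of any member and group (3.32). The test of whether Keap1 loss acted differently without Nrf2 called 0 of 9 members (15.1% of genes, 2 unadjusted), with Mest at 0.89 (adjusted p = 0.143) and H19 at -0.59 (adjusted p = 0.109). The contrasts share arrays, so their values stand side by side and are not independent.

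**Figure D3:**
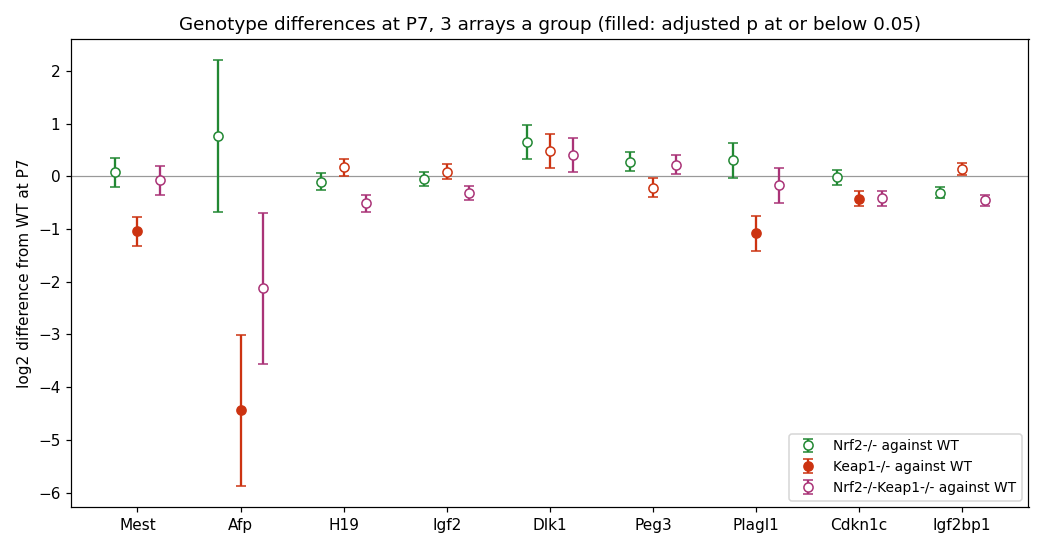
Log2 differences of 9 members from WT at P7 for 3 genotypes, with standard errors of the limma fit as bars and filled points for an adjusted p at or below 0.05. Mest, Afp, Plagl1 and Cdkn1c are filled for Keap1-/- at -1.05, -4.44, -1.08 and -0.42, and no point is filled for the other genotypes.

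Markers of some other cell types moved with the Keap1-/- arrays too. The hepatocyte median was 0.04, 0.17 and 0.12 in Keap1-/-, against 2.21 to 4.33 in WT, 1.63 to 5.33 in Nrf2-/- and 1.52 to 2.96 in Nrf2-/-Keap1-/-. Between 3 and 6 of the 12 hepatocyte markers were above background in Keap1-/-, and Apoa1, Apoa2 and Ttr on 0 of its 3 arrays. The summed hepatocyte level, on the log2 scale, was 3.85 to 4.41 in Keap1-/-, 6.46 to 8.44 in WT and 6.39 to 7.29 in Nrf2-/-Keap1-/-. Over the 12 P7 arrays the order of Afp and that of the hepatocyte median were the same except that the arrays in places 6 and 7 were exchanged. Of 12 mesenchyme markers, 7 were lower in Keap1-/- than in WT (median difference -0.94), and 7 were higher in Nrf2-/-Keap1-/- than in Keap1-/-. Of the smooth muscle markers 5 of 8 were lower in Keap1-/- and 1 higher (median -0.93). Of the leukocyte markers 4 of 5 were lower (median -0.43), and of the proliferation markers 5 of 7 (median -0.67). Other lists went otherwise. Higher and lower were 2 and 1 of 10 for striated muscle (median 0.55) and 1 and 3 of 10 for squamous epithelium (-0.16). For fat, endothelium, enteric, red cell and airway markers 1 was higher and 0 lower in each (medians 0.61, 0.12, 0.08, 0.12 and -0.01). Counts against WT stand beside 15.4% of all genes called higher and 18% lower, and those against Keap1-/- beside 33.4% either way. The part of these markers in the differences of Afp, Mest and Plagl1 was not tested.

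Other imprinted genes were called in Keap1-/- esophagus about as often as all genes. Of 49 tested, 4 were higher and 12 lower than in WT, beside 15.4% and 18% of all genes, with a median difference of -0.12 against -0.02 over all genes. All list counts against WT here stand beside these shares. Dio3, which inactivates thyroid hormone and lies in the Dlk1 cluster, was lower by 1.54 (SE 0.36), and Sgce and Dcn by 1.17 and 1.00. Copg2, beside Mest, was higher by 1.83 (SE 0.10), and Phlda2, of the Cdkn1c cluster, by 1.57 (SE 0.25). Against Keap1-/-, Nrf2-/-Keap1-/- esophagus was higher for 13 and lower for 5 (median difference 0.16), beside 33.4% of all genes called either way, with Dio3 at 2.12, Copg2 at -1.73 and Phlda2 at -1.56. In the insulin-like growth factor axis 5 of 18 genes were lower in Keap1-/- and 0 higher (median difference -0.11), among them Igfbp1 at -3.71 and Igfbp7 at -1.15. Cdkn1a, another Cip/Kip inhibitor, was higher by 1.42 (SE 0.24) while Cdkn1c was lower, and 2 of 6 such genes were higher and 0 lower (median -0.07). In the Lin28 and let-7 axis 3 of 14 were higher and 1 lower (median 0.07), and among 8 Dlk1-like and Notch ligand genes 2 were higher and 1 lower (median -0.03). Of 14 fetal liver genes and regulators 4 were lower and 1 higher (median -0.85). Alb was lower by 3.65 (SE 0.26) and Cebpa, a transcription factor of liver and squamous epithelium, was higher by 1.43. Beside the same 33.4%, Nrf2-/-Keap1-/- against Keap1-/- gave 4 of 18 higher in the growth factor axis (median 0.25), 4 of 14 lower in the Lin28 and let-7 axis (median -0.26), 4 higher and 1 lower of 14 fetal liver genes (median 0.35), and a median of -0.04 and 0.02 for the inhibitors and the Notch ligand group, beside 0.04 over all genes.

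From P7 to the adult, the means of 9 members were lower in both genotypes, and the WT values are a description. WT adult minus WT P7 was -8.07 for Afp, -7.94 for Mest, -5.39 for Igf2, -5.30 for Dlk1, -4.46 for Cdkn1c, -2.67 for H19, -1.64 for Peg3, -0.63 for Igf2bp1 and -0.36 for Plagl1. The WT groups did not overlap for 8 of 9, all but Plagl1, and among 18189 genes 55.8% did not overlap and 22.9% were called lower. Afp was above background on 1 of the 3 WT adult arrays. Within the one scan day that held both WT groups, 3 arrays against 2, Mest was at -7.80, Afp at -7.75 and Igf2 at -5.50.

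Nrf2-/- arrays, none of them in the WT contrast, gave the same comparison with a test. The choice of Mest and Afp named no genotype. If it also read these arrays, the test is not independent of the choice. Ordered from the largest fall in Nrf2-/-, Afp was number 1 and Mest number 3 of 18950 genes. The Nrf2-/- P7 arrays were all scanned on 1 day and the Nrf2-/- adult arrays on 2 other days, with another Feature Extraction version, so age, tissue and scan cannot be told apart in this test. Mest was 6.19, 6.34 and 6.26 at P7 and -2.70, -2.57 and -2.28 in the adult. It fell by 8.78 (SE 0.13, limma adjusted p = 3.57e-07). Igf2 was 4.38, 4.55 and 4.54 at P7 and -1.31, -1.08 and -1.12 in the adult, and fell by 5.66 (SE 0.11). Dlk1 was 2.39, 2.45 and 2.44 and then -3.36, -3.57 and -3.82, and fell by 6.01 (SE 0.13). Within each of these groups the arrays lay close together and far from the other age.

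Cdkn1c was 5.55, 5.78 and 5.84 at Nrf2-/- P7 and 1.23, 1.22 and 0.53 in the Nrf2-/- adult. It fell by 4.73 (SE 0.21), H19 by 2.55 (SE 0.11) and Peg3 by 1.83 (SE 0.12). In the Nrf2-/- adult H19 was still between 1.45 and 1.79. Afp fell by 9.56 with a wide error (SE 1.48, adjusted p = 0.00159), from arrays between 1.75 and 8.32 to arrays between -4.97 and -4.69. Igf2bp1 fell by 0.48 (SE 0.11, adjusted p = 0.0102), and its brightest probe alone gave 0.08.

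Plagl1 was the exception among the imprinted members. It was 4.28, 3.90 and 3.42 at P7 and 3.59, 3.56 and 3.64 in the adult Nrf2-/- arrays, which overlap. Its change of -0.27 (SE 0.21, adjusted p = 0.300) did not pass. So 8 of 9 members fell, where 28.5% of 18950 genes were called lower and 56.5% either way, and the groups did not overlap for 8 of 9 members beside 65.8% of genes. The median change of the 9 was -4.73 and that of all genes 0.01. With spots marked as outliers left out 4 members were called, Afp, Igf2, Igf2bp1 and Peg3, and only 5 of the members could then be tested.

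**Figure D4:**
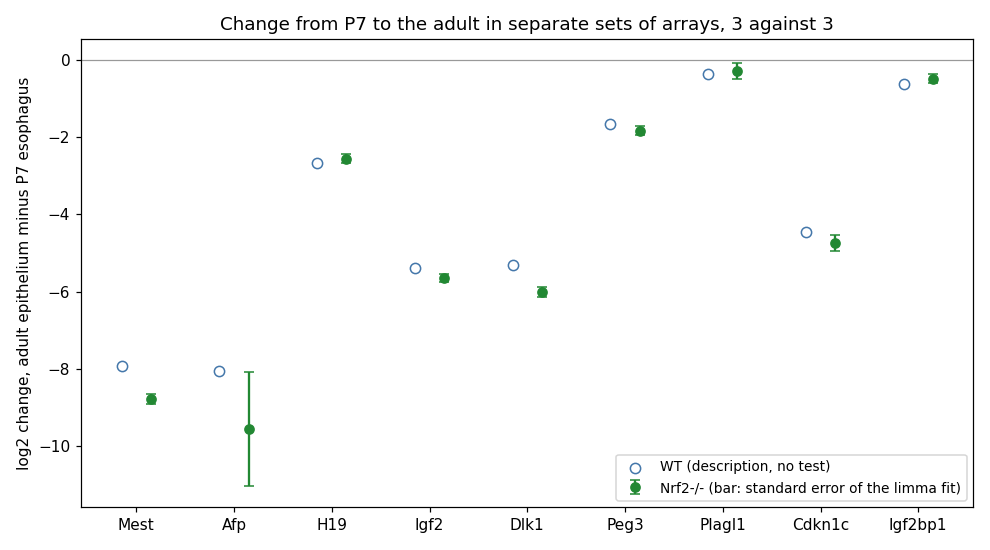
Log2 change from P7 esophagus to adult epithelium for 9 members, open points for WT (no test) and filled points for Nrf2-/- with standard errors of the limma fit. Mest and Afp lie lowest in both, Plagl1 at -0.36 and -0.27 lies nearest to 0.

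Markers of mesenchyme, muscle and several other cell types moved with the members here. Of 12 mesenchyme markers, 11 fell and 1 rose in Nrf2-/- (median change -1.39). All 10 striated muscle markers fell, as did 7 of 10 hepatocyte markers tested. So did 6 of 8 smooth muscle, 5 of 6 endothelium, 5 of 5 enteric, 4 of 5 fat, 2 of 3 red cell and 4 of 7 proliferation markers, with 0 higher. Leukocyte markers had 3 of 5 lower and 1 higher, and airway markers 1 of 3 each way. Of 10 squamous epithelium markers, 5 rose and 1 fell (median change 0.40). These counts stand beside 28.5% of all genes called lower and 56.5% either way. The part of these markers in the members' changes was not tested. Further imprinted genes were mostly lower in the Nrf2-/- adult, with 31 of 49 lower, beside 28.5% of all genes, 8 higher and a median change of -0.91. Gatm fell by 6.04 (SE 0.20), Dio3 by 3.78 (SE 0.13) and Ddc, the decarboxylase of dopamine synthesis beside Grb10, by 3.74 (SE 0.13). Phlda2 and Dlx5 rose by 2.12 (SE 0.12) and 2.10 (SE 0.13).

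In the groups of Igf2 and Igf2bp1, genes moved in both directions, beside 28.5% of all genes lower and 56.5% called. In the insulin-like growth factor axis 10 of 18 fell and 2 rose (median change -0.98), where Igfbp1 fell by 6.85 (SE 0.63), Grb10, an imprinted adaptor that damps insulin signalling, by 3.42 (SE 0.11) and Igfbp5 by 2.63 (SE 0.20). Igfbp6 rose by 0.80. In the Lin28 and let-7 axis 7 of 14 fell and 3 rose (median change -0.27), with Igf2bp3 down by 3.11, Igf2bp2 by 2.58 and Mycn by 1.71. Of the 7 Dlk1-like and Notch ligand genes tested, 4 rose and 3 fell (median change 0.72), and Dll1, Jag1 and Dlk2, the close relative of Dlk1, rose by 1.35, 1.13 and 0.81, and Dner and Dll4 fell by 1.53 and 0.93. Of 6 other Cip/Kip and Ink4 inhibitors, 2 rose and 1 fell (median change -0.07), and Cdkn2c and Cdkn1a rose by 1.54 and 0.97 while Cdkn1c fell. Of 14 fetal liver genes and regulators 6 fell and 3 rose (median change -0.64). Alb fell by 4.06 (SE 0.18), and Cebpa and Zhx2, the latter a repressor of Afp and H19 in adult liver, rose by 2.02 and 0.53.

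In adult epithelium the loss of Nrf2 called 0 of 9 members in limma (background 0.444%, 2 unadjusted). Mest was lower in Nrf2-/- with no overlap, -2.70, -2.57 and -2.28 against -1.86, -1.37 and -2.03, but its difference of -0.77 (SE 0.20) did not pass (adjusted p = 0.144). Afp was at -0.73 (adjusted p = 0.240), and was called without WT adult replicate 3. That array was the only WT adult array scanned on a day with Nrf2-/- adult arrays, so without it genotype and scan cannot be told apart. It was also the only WT adult array above background for Afp. Within the scan day that held both genotypes, 1 array against 2, Mest was at -0.61 and Afp at -0.11.

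Across the 9 group means most imprinted members followed each other. Pearson's r was 0.995 between Igf2 and Dlk1, 0.994 between Igf2 and Cdkn1c and 0.988 between Mest and Cdkn1c. Plagl1 correlated with Igf2 at 0.186 and Igf2bp1 with Lin28b at 0.923. Lin28b was above background on at most 1 array of each group other than E11.5 and E15.5, the groups that hold the doubted arrays. Among 19786 genes, those most like Igf2 were Dlk1 and Cdkn1c themselves and then Dusp26 (0.992). The genes most like Mest were Chgb and Sez6l2 (0.995 and 0.994), and those most like H19 were Prph and Plpp3 (0.991 and 0.986). For Afp the nearest were Timp2 and Slc2a10 (0.981 and 0.979), and for Igf2bp1 Rnps1 and Zmym3 (0.995 and 0.992). Nearest to Plagl1 were Rab30 and Tmem132c (0.981 and 0.979). These are descriptions over 9 means in which the adult groups lie far from the rest, and all points share one reference RNA. The E11.5 means include replicate 2 with its raised reference signal.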

How the data were processed

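Total RNA of 27 mouse esophagus samples was hybridised in Cy5 against a common reference RNA in Cy3 on 2-colour Agilent 4x44k arrays, 9 groups of 3, with no dye swap. The deposited scanner files hold spot intensity values of both channels, which the authors extracted with Agilent Feature Extraction (9.1 in the submitters' notes, 10.5.1.1 and 10.7.3.1 in the file headers). The deposited value table holds a log10 ratio of Cy5 to Cy3 per probe and differed from the Feature Extraction log10 ratio by at most 0.00500, so its direction is Cy5 over Cy3. The study's methods name another image program, and which produced the scanner files is not settled. Depth has no counterpart on arrays, and their number limits precision.

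Background was corrected by normexp (offset 50), ratios were loess-normalized within arrays, outlier-marked spots were kept, and spots whose local background exceeded 5 times the array median were left out. Log2 values were averaged over the spots of each probe, then over each gene's probes. Of 41174 probes, 26918 were matched by accession to a current RefSeq symbol, and 20 probes (38 spots) named the 10 members. A gene was tested if 3 or more arrays in the fit held a Cy5 signal of it well above background. Fits used limma 3.58.1 in R 4.3.3 on 3 sets of groups (the 4 WT ages to P7, the 4 genotypes at P7, each adult pair) with Benjamini-Hochberg adjustment over all genes and a threshold of 0.05. The labels call the samples of a group biological replicates and the methods name individual esophagi, 3 per group. The most alike pair of arrays correlated at 0.990, and none was counted as a duplicate.

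Members, gene lists (further imprinted genes, the insulin-like growth factor axis, the Lin28 and let-7 axis, fetal liver genes, cell cycle inhibitors, Dlk1-like and Notch ligands), cell type markers and tests were chosen with earlier results of these data known. The selection of Mest and Afp names no genotype and was read as WT. If Nrf2-/- arrays were also read, their tests in Nrf2-/- are not independent of it. Tests of Mest and Afp that use WT P7 or WT adult arrays reuse arrays of that choice and are not independent of it either. All members are named in the text, and from each list up to 3 genes past the threshold with the largest change in each direction. The genes said to be most like a member had the highest Pearson correlation over the 9 group means.

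Replicate numbers were shared between groups, and the deviations of same-numbered arrays correlated above 0.1 in every pair for P0 to P7 (0.13 to 0.36), E11.5 to P7 (0.13 to 0.19) and Nrf2-/-Keap1-/- against Keap1-/- (0.13 to 0.36). Alternatives changed the spots, signal, background, normalization, probe choice, filter, arrays in the fit, fold limit, replicate, slide or scan block, and left out single arrays. Leaving out E11.5 replicate 2 together with both arrays that correlate with the other label was chosen after seeing the data. The fits were tested on simulated data.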

Additional observations from a re-analysis of the deposited data

How the results depend on the processing

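Of the alternatives, 184 left a count or median for the members within its limit and 45 moved it. Members called from E11.5 to P7 (2) numbered 1 with outlier spots left out, with each spot's own local background, with median centring and with no filter on dim probes, 5 in a single fit of all 27 arrays, 0 with a replicate block, 0 with a slide block and 1 to 3 with single arrays left out. Without both arrays that correlate with the other label, E11.5 to E15.5 had 2 calls, E15.5 to P0 and P0 to P7 had 1 each and the F-test 4, all against 0 or 1. Leaving out E11.5 replicate 2 as well, chosen after seeing the data, gave 1, 2, 1 and 3. E15.5 to P0 also had 1 with median centring and with all 27 arrays, the F-test had 2 with processed signals or deposited ratios, and 1 to 2 with single arrays left out (2 without E11.5 replicate 2, where Mest joined, or without E15.5 replicate 1). Members called for Keap1-/- against WT (4) numbered 1 with outlier spots left out or all 27 arrays, 0 with a replicate block, where the numbers do not pair the samples, and 0 to 3 with single arrays left out. Median centring kept that count within its limit but changed the members, to Afp, Dlk1, H19, Igf2 and Igf2bp1. Of these only Afp was lower in Keap1-/- than in WT in the main fit. For Nrf2-/-Keap1-/- against WT (0) the brightest probe and a slide block gave 1 each. For Nrf2-/-Keap1-/- against Keap1-/- (4) there were 2 with outlier spots left out, 0 with all 27 arrays, 0 at a change of at least 2-fold and 2 to 4 with single arrays left out. From P7 to adult in Nrf2-/- (8) there were 4 with outlier spots left out, where fewer members could be tested, and 8 to 9 with single arrays left out. In the adult (0) own local background gave 3 (Afp, Mest and Plagl1) and leaving out single arrays 0 to 1, the 1 being Afp without WT adult replicate 3. Without that array genotype and scan day cannot be told apart. The median WT change from P7 to the adult (-4.46) was -3.80 with outlier spots left out and -4.05 with median centring, and -4.53 to -4.32 with single arrays left out. Directions turned for Cdkn1c in Keap1-/- against WT with median centring (0.057), for Igf2bp1 from P7 to adult in Nrf2-/- with its brightest probe (0.082) and in WT with own local background (0.29). Apart from the alternatives' own construction, the cause was not tested.

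Median centring moved the median of all genes to 0.31 from P7 to adult in Nrf2-/-, 0.11 for Keap1-/- against WT and 0.40 in the adult comparison, and the share of calls that were higher from 49.5% to 71%, 46.1% to 66.1% and 50.6% to 84.2%. It also moved that share from 55.6% to 36.2% for E11.5 to P7, 57.1% to 39.8% for E15.5 to P0, 60.2% to 42.9% for P0 to P7 and 72% to 88.3% for Nrf2-/-Keap1-/- against WT. All-gene calls with the replicate block were 2015 from E11.5 to P7 (5995 without it), 3075 for Keap1-/- against WT (6417) and 5966 from P7 to adult in Nrf2-/- (10707). Lowest and highest over all alternatives, they were 199 (slide block) to 7900, 1629 (at least 2-fold) to 8145 and 4055 (at least 2-fold) to 12490. In the same way they were 0 to 2675 from E11.5 to E15.5 (0), 948 to 5747 from E15.5 to P0 (3930), 205 to 1471 from P0 to P7 (480), 3701 to 8930 in the F-test (5975), 2 to 9 for Nrf2-/- (3) and 4 to 503 for Nrf2-/-Keap1-/- (82) against WT, 1546 to 7559 for Nrf2-/-Keap1-/- against Keap1-/- (6426), 1 to 1693 in the adult (81), and 1717 to 8724 from P7 to adult in WT (7794). A block for scan day could not be fitted for comparisons among the WT ages to P7 or among the genotypes at P7. Lin28b and the adult level of Afp lay near background, which limits what can be said of them.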
